A study of Mus musculus with 12 samples.

Results

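Imprinted genes are expressed from 1 parental allele only, and 44 of them were followed here through brain and liver of mice with and without the vault RNA gene Vaultrc5. They were taken from the 55450 rows of the deposited count table by their symbol, the part of a row's name that follows the gene identifier, and all 44 were found. The list holds 24 genes usually given as expressed from the paternal allele, 17 usually given as maternal and 3 set aside because their allele differs between isoforms or tissues (Gnas, Grb10 and Inpp5f). These classes are nominal: several of the maternal class, such as Ube3a, Kcnk9 and Trappc9, are known to be imprinted in brain or neurons and not in every tissue. The label of the list is textbook knowledge and was not tested, because counts per gene do not show from which allele a read came.

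The study asked what the loss of Vaultrc5, a small non-coding RNA of the vault particle, does to gene expression. Total RNA was sequenced from males of 7 to 9 weeks in 4 groups of 3 libraries: brain of wild-type mice, brain of Vaultrc5-/- mice, liver of wild-type mice and liver of Vaultrc5-/- mice. The titles name the control libraries flx, while the genotype label calls them wild-type, and the text follows the genotype label. Strain, pooling and the part of the brain taken were not given in the sources used here, and no label says that libraries of 1 group came from separate animals, so the p-values measure only the spread between these libraries, which may be technical.

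Imprinting is set in the germ line, where DNA methylation is laid down at control regions on the maternal or the paternal chromosome, and it is kept after fertilisation by zinc finger proteins such as ZFP57 that bind the methylated copy. Many imprinted genes lie in clusters in which a protein-coding gene of 1 allele faces a long non-coding RNA of the other, such as Igf2r and Airn or Cdkn1c and Kcnq1ot1. As a class they are known for growth control before and after birth, and in the adult for high expression in neurons and in the hypothalamus.

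The brain libraries held 14844937 to 18567362 counts and the liver libraries 23247425 to 27155478. Levels are given as CPM, counts divided by the scaled size of a library, on 1 scale for all 12 libraries, on which 3 counts, taken as the floor of detection, lie at 0.123 to 0.148 CPM in brain and 0.149 to 0.169 CPM in liver. Vaultrc5 itself had 1 to 4 counts in the wild-type brain libraries, 33 to 48 counts in the wild-type liver libraries and 0 in all 6 knockout libraries. Tissue labels were checked on the hepatocyte gene Alb, which had at most 5 counts in any brain library, and the neuronal gene Snap25, which had at most 3 in any liver library. The brain libraries differed in the regions they held: the summed CPM of 5 markers of the cerebellum (Gabra6, Pcp2, Cbln1, Cbln3 and Zic1, chosen after values were seen) was 1136, 13.3 and 255 in wild-type replicates 1 to 3 and 1064, 14.2 and 430 in knockout replicates 1 to 3. The summed CPM of 6 choroid plexus markers was 188, 3.69 and 350 in the 3 wild-type libraries, against 490, 7.05 and 9.89 in those of the knockout. Of the 39 members tested in brain, 11 (28.2%) had their lowest level of each genotype in the library numbered 2, as did 19.1% of all genes: Airn, H19, Igf2r, Igf2, Sgce, Mirg, Zim1, Mkrn3, Trappc9, Zrsr1 and Commd1. The tissue values of Airn, H19 and Igf2r are given below also without those libraries, and in the other 8 their removal changed no call between the tissues. In bulk tissue a smaller number of cells of a type and less RNA per cell cannot be told apart.

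The hexamer TGCCGC, the core of the motif bound by ZFP57 at imprinted loci, was searched on both strands in windows from 250 bases before to 50 bases after each start site, taken from RefSeq on the GRCm38.p6 build. It was present in 14 of 52 windows of members (26.9%), belonging to 13 of the 35 members that had a window, and in 3813 of 32851 windows of all genes (11.6%). The windows of members also held more CpG pairs, with a median of 15 against 7 over all windows. The hexamer contains a CpG, so the 2 counts are not independent, and a match is a description of the letters only. The 250 bases before the start are shown for Zdbf2, Nap1l5 and Mest, the members that had at least 2 matches in a window and were higher in brain in both genotypes. Capitals mark the hexamer or its reverse complement, and the sequences run 5′ to 3′ on the strand of the gene. The Zdbf2 window (chr1:63200108-63200357, plus strand) lies before the annotated span of the gene, the Nap1l5 window is chr6:58907127-58907376 on the minus strand with a further match after the start, and the Mest window is chr6:30737800-30738049 on the plus strand. The annotated span of Zdbf2 starts at base 63273265, and its window there (chr1:63273019-63273318) had 0 matches. A further Mest window, from base 30737803, holds the same matches as the one shown, and both are among the 14.
Zdbf2: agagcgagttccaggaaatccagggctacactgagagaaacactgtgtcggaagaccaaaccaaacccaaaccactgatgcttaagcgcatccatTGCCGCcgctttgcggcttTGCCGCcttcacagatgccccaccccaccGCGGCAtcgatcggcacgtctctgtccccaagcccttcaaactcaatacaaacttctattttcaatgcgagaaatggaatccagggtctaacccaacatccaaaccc
Nap1l5: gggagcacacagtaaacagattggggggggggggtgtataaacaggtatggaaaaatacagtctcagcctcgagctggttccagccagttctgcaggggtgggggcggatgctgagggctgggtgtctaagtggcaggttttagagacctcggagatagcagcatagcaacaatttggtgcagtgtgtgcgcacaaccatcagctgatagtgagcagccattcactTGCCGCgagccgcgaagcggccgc
Mest: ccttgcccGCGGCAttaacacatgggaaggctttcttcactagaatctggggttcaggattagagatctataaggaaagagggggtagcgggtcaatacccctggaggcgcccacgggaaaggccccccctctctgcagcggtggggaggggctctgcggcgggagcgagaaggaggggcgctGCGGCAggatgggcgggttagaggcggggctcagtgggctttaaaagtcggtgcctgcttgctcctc

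Several members are also hosts of microRNAs, short RNAs that pair with messenger RNAs through their seed. The span of Mirg holds 14 microRNA hairpins on its own strand, and those of H19 and Mest hold 1 each. On the strand opposite to Rtl1 lie 6 hairpins, some of whose products are known to act against the Rtl1 messenger. The mature microRNAs were not measured in these libraries; a sequence from RefSeq is shown for each host below to give the product that the host transcript carries, with the seed (bases 2 to 8) in capitals. None of the 5 seeds shown is shared with another.
miR-675-5p, in H19: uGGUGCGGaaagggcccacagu
miR-335-5p, in Mest: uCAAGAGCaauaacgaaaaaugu
miR-134-5p, in Mirg: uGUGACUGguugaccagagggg
miR-410-3p, in Mirg: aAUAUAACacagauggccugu
miR-127-3p, opposite Rtl1: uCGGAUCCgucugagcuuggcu

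Of the 44 members, 42 had more than 3 counts in at least 1 brain library. The exceptions were Peg12 and Phlda2, of which the latter encodes a growth-restraining protein best known from the placenta. In liver 38 members passed that mark. Dlk1, Rtl1, Usp29, Calcr, Magel2 and Kcnk9 did not, and Rtl1, Calcr and Magel2 had 0 counts in all 6 liver libraries.

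**Figure D1:**
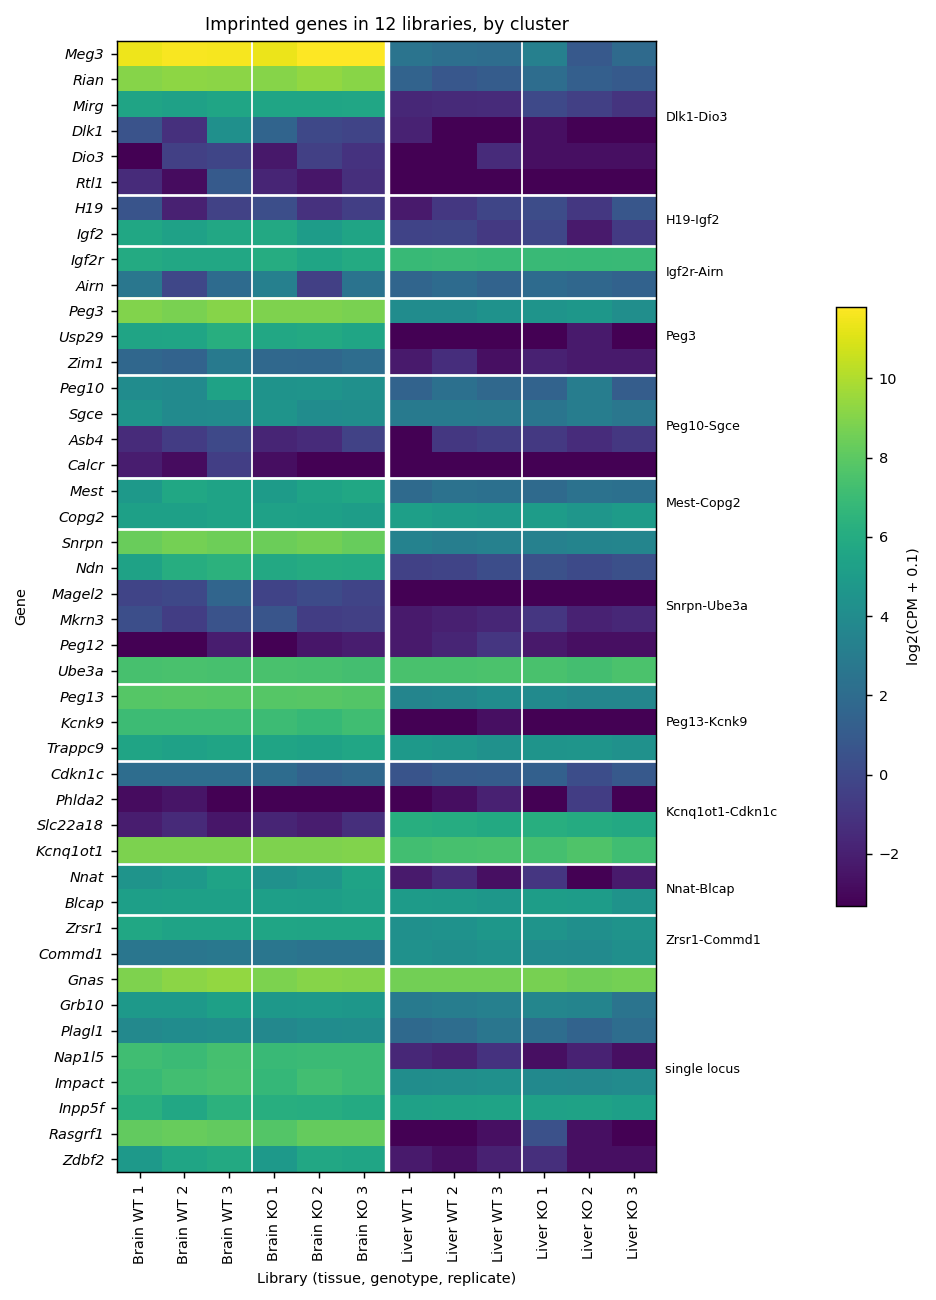
Level of each imprinted gene (rows, grouped by cluster, with single loci at the bottom) in the 12 libraries (columns), as log2(CPM + 0.1); lighter is higher. Most rows are lighter in the 6 brain libraries, while Slc22a18 is lighter in the 6 liver libraries.

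Most of the members tested were higher in brain than in liver, in both genotypes. They were chosen with earlier results of these data known, so the shares describe this list and not imprinted genes at large. A further list of imprinted or cluster genes, given below, had 12 of 28 tested genes higher in wild-type brain and 12 higher in wild-type liver. In wild-type mice 33 of the 37 members that passed the filter on low counts differed between the tissues by the edgeR quasi-likelihood test, at an adjusted p under 0.05, while 78.6% of all 18850 genes tested did so. Of these members 30 (81.1% of those tested) were higher in brain, against 43.9% of all genes, and 3 (8.11%) were higher in liver, against 34.7% of all genes. In knockout mice, whose libraries are separate from the wild-type ones, 33 of 38 tested members differed, where 78.7% of all 18785 genes did. Again 30 members (78.9%) were higher in brain, against 43.5% of all genes, and 3 (7.89%) were higher in liver, against 35.2% of all genes. The same 29 members were higher in brain in both genotypes, and the same 3 were higher in liver in both: Slc22a18, Commd1 and Igf2r.

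The median log2 fold change of brain over liver was 2.78 over the tested members in the wild type and 2.70 in the knockout, where all genes had a median of 0.21 in either genotype. Without TMM scaling, on library totals alone, the median of all genes moved to 1.05 in the wild type and 1.08 in the knockout. The split of all genes called higher in brain and in liver then went from 8275 and 6542 to 11635 and 3997 in the wild type, and from 8178 and 6611 to 11668 and 3871 in the knockout. The members called numbered 35 in either genotype on library totals, with 32 and 33 of them higher in brain.

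By the allele usually given, the members of the wild-type comparison are described here beside all genes tested, of which 43.9% were higher in brain and 34.7% higher in liver, with a median log2 fold change of 0.21. Of the 24 paternally expressed genes 19 were higher in brain, 0 were higher in liver, 1 did not pass the test and 4 were not tested, with a median log2 fold change of 4.43 over those tested. The 17 maternally expressed genes held 8 that were higher in brain, 3 that were higher in liver, 3 that did not pass and 3 that were not tested, with a median of 0.79. The 3 genes with an allele that depends on isoform or tissue were all higher in brain, with a median of 0.78. In the knockout the medians were 4.39 for the paternal, 0.60 for the maternal and 0.76 for the third class. These counts describe the list and are not a test of 1 parental class against the other.

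**Figure D2:**
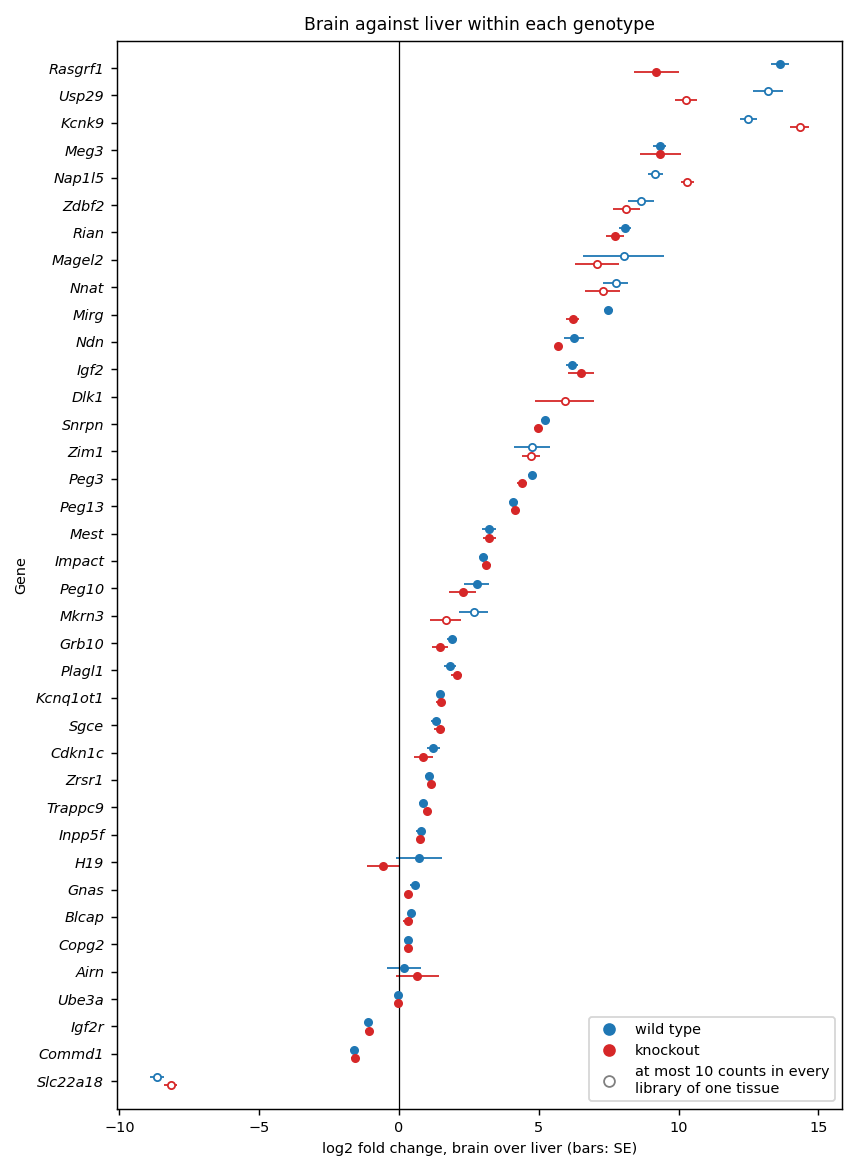
Log2 fold change of brain over liver for each tested member, with its SE, in wild type (blue) and knockout (red); open symbols mark members with at most 10 counts in every library of 1 tissue. Members to the right of 0 were higher in brain, and Igf2r, Commd1 and Slc22a18 lie to the left in both genotypes.

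The Dlk1-Dio3 cluster on chromosome 12 is known for maternally expressed non-coding RNAs that face paternally expressed protein-coding genes. Its long non-coding RNA Meg3 (chr12:109541001-109571726, plus strand) was the most abundant member in brain per kb of exon, at 174 ± 21.3 CPM per kb (SD, n = 6 libraries of both genotypes). The level of Meg3 was 2784, 3273 and 3052 CPM in wild-type brain and 2634, 3501 and 3590 CPM in knockout brain. In liver it was 5.57, 4.53 and 4.19 CPM in the wild type and 9.47, 1.75 and 3.59 CPM in the knockout. No liver value came near the brain values, and the log2 fold change was 9.32 ± 0.22 (SE) in the wild type, with an adjusted p of 6.63e-08, and 9.35 ± 0.72 in the knockout, with an adjusted p of 1.33e-05. Without knockout liver library 1 the knockout value of Meg3 was 10.21. The other non-coding RNAs of the cluster followed: Rian, a host of small nucleolar RNAs, had a log2 fold change of 8.08 ± 0.23 in the wild type, and Mirg, the microRNA host, one of 7.48 ± 0.17. In the knockout Rian was at 7.72 ± 0.34 and Mirg at 6.21 ± 0.23. Mirg had 14 counts over the wild-type liver libraries, a ratio of 182 with a 95% counting interval of 108 to 334. On the protein-coding side of the cluster, Dlk1, which encodes a membrane-bound inhibitor of fat cell formation, was at 18.96 CPM in the third wild-type brain library and between 0.328 and 2.86 CPM in the other 5 brain libraries. It had 3 counts over the wild-type liver libraries and 1 over the knockout liver libraries, and passed the filter only in the knockout contrast, through its brain counts. The ratio of Dlk1 in the knockout, brain over liver, was 79.7 with a 95% counting interval of 13.96 to 3180. Without knockout brain library 1 the ratio was 45.0, and without knockout liver library 1, which held the 1 liver count, Dlk1 was at least 8.92-fold higher in brain. Dio3, the enzyme that inactivates thyroid hormone, was not tested in either contrast and stayed between 0 and 0.811 CPM in brain. Rtl1, a gene derived from a retrotransposon, had 0 counts in liver and 0.041 to 1.88 CPM in brain.

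H19 and Igf2 on chromosome 7 are the textbook pair, with a maternally expressed non-coding RNA and a paternally expressed growth factor that share enhancers. The adult brain held Igf2 and little H19: Igf2 (chr7:142650766-142666816, minus strand) was at 51.9, 40.6 and 53.5 CPM in wild-type brain and 57.1, 32.7 and 45.9 CPM in knockout brain. In liver Igf2 was at 0.732, 0.797 and 0.472 CPM in the wild type and 0.842, 0.113 and 0.505 CPM in the knockout, and the groups of the 2 tissues did not overlap. The log2 fold change of Igf2 was 6.18 ± 0.22 in the wild type and 6.50 ± 0.46 in the knockout, or 7.14 without knockout liver library 1. H19 (chr7:142575529-142578143, minus strand) was at 1.42, 0.164 and 0.683 CPM in wild-type brain and 0.113, 0.448 and 0.786 CPM in wild-type liver, so the tissues overlapped. In knockout brain H19 was at 1.14, 0.353 and 0.587 CPM, and in both genotypes the library numbered 2 was the lowest. The log2 fold change of H19 was 0.73 ± 0.82 in the wild type (adjusted p = 0.440) and -0.58 ± 0.58 in the knockout (adjusted p = 0.382). With 1 library left out the wild-type value ran from -0.12 to 1.37. Without both brain libraries numbered 2 it was 1.14 with an adjusted p of 0.166 in the wild type and -0.29 with an adjusted p of 0.680 in the knockout. Per kb of exon the ratio of H19 to Igf2 was 0.0358 in brain and 2.97 in liver, and both liver levels lay near the floor.

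Igf2r, which encodes the receptor that carries IGF2 to the lysosome for breakdown, was higher in liver, where it was the third most abundant member per kb. Its level was 62.0, 53.4 and 53.8 CPM in wild-type brain and 119, 130 and 119 CPM in wild-type liver. In the knockout it was 65.8, 48.2 and 60.5 CPM in brain and 123, 119 and 123 CPM in liver, with no overlap between tissues. The log2 fold change of brain over liver was -1.12 ± 0.11 in the wild type (adjusted p = 3.33e-05) and -1.07 ± 0.13 in the knockout (adjusted p = 0.00019), and on library totals the knockout value was -0.19 with an adjusted p of 0.246. Without both brain libraries numbered 2 Igf2r was at -1.14 in the wild type and -0.97 in the knockout. Airn, the paternally expressed non-coding RNA that silences Igf2r on its own chromosome, did not pass the test between tissues. It was at 6.28, 0.82 and 3.76 CPM in wild-type brain and 2.98, 3.79 and 2.78 CPM in wild-type liver. In knockout brain it was at 9.43, 0.617 and 5.28 CPM, so that both brain libraries numbered 2, which also had the lowest sums of cerebellum markers, had the lowest Airn. The part of the cerebellum in the Airn level was not tested. The log2 fold change of Airn was 0.19 ± 0.61 in the wild type and 0.66 ± 0.76 in the knockout. Leaving out single libraries gave values between -0.50 and 0.59 in the wild type and between -0.11 and 1.16 in the knockout, and with the replicate block the wild-type value was -0.087, so its sign was not stable. Without both libraries numbered 2, a choice made after the data were seen, it was 0.59 with an adjusted p of 0.101 in the wild type and 1.16 with an adjusted p of 0.0113 in the knockout.

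All 3 members of the Peg3 cluster were higher in brain in both genotypes. Peg3, a zinc finger protein, was at 486, 438 and 527 CPM in wild-type brain and 16.4, 16.6 and 20.6 CPM in wild-type liver, and its log2 fold change was 4.76 ± 0.16. Usp29, a ubiquitin protease gene that starts next to Peg3 on the other strand, was at 44.8, 48.5 and 71.3 CPM in wild-type brain. It had 0 counts in all wild-type liver libraries and was therefore at least 346-fold higher in brain, against a floor of 3 counts per library. In the knockout it had 3431 counts over the brain libraries and 2 over the liver libraries, a ratio of 1439 with a 95% counting interval of 398 to 11890. Both liver counts were in knockout liver library 2, and without it Usp29 was at least 323-fold higher in brain. Zim1, the maternally expressed zinc finger gene of the cluster, was at 3.27, 2.75 and 7.22 CPM in wild-type brain and at most 0.299 CPM in liver. Intervals and floors cover counting error only.

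In the Peg10-Sgce cluster on chromosome 6 the 2 members that passed the filter were higher in brain. Peg10, a gene of retrotransposon origin needed for the placenta, had a log2 fold change of 2.78 ± 0.46 in the wild type and 2.28 ± 0.47 in the knockout. It was 2.08 without wild-type brain library 3 and 3.11 without knockout liver library 2, each the highest of its group. Sgce, which encodes epsilon-sarcoglycan, had 1.32 ± 0.17 and 1.46 ± 0.20. Asb4 was below 1 CPM in every library, and Calcr, the calcitonin receptor gene, reached 0.598 CPM in 1 brain library and 0 in liver. Mest, a hydrolase gene that also carries miR-335, was at 28.9, 51.9 and 43.4 CPM in wild-type brain and 3.71, 5.08 and 4.61 CPM in wild-type liver, with a log2 fold change of 3.22 ± 0.25. Its overlapping neighbour Copg2, a coat protein gene, was at 38.5, 38.9 and 43.6 CPM in wild-type brain and 37.1, 32.0 and 27.8 CPM in wild-type liver. The Copg2 groups did not overlap, yet the difference did not pass the test in either genotype, with a log2 fold change of 0.33 ± 0.13 in the wild type (adjusted p = 0.0521) and 0.31 ± 0.14 in the knockout (adjusted p = 0.0713).

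The Snrpn-Ube3a cluster, the mouse counterpart of the Prader-Willi and Angelman region, held neighbours with unlike tissue patterns. Snrpn, which encodes a splicing protein of neurons, was at 327, 403 and 359 CPM in wild-type brain and 10.4, 8.77 and 9.90 CPM in wild-type liver. The log2 fold change of Snrpn was 5.23 ± 0.15 in the wild type and 4.97 ± 0.14 in the knockout, and per kb it was second to Meg3 in brain at 164 ± 15.9 CPM per kb. Ube3a, the maternally expressed ubiquitin ligase gene, was at 170, 175 and 170 CPM in wild-type brain and 174, 178 and 182 CPM in wild-type liver. Its log2 fold change was -0.05 ± 0.09 in the wild type (adjusted p = 0.641) and -0.04 ± 0.11 in the knockout (adjusted p = 0.745), and 0.79 and 0.84 on library totals, where the median of all genes rose by a like amount, from 0.21 to 1.05 and 1.08. The intronless genes Ndn and Magel2, of the MAGE family, were both higher in brain. Ndn was at 41.3, 67.4 and 84.2 CPM in wild-type brain and at 0.675, 0.747 and 1.10 CPM in wild-type liver, a log2 fold change of 6.25 ± 0.35. Magel2 reached only 0.741 to 2.99 CPM over the 6 brain libraries and had 0 counts in liver, at least 9.68-fold higher in wild-type brain and at least 5.09-fold higher in knockout brain. Without the third wild-type brain library, the highest, the wild-type bound was also 5.09-fold. Mkrn3, a ring finger gene known for its part in the timing of puberty, was at most 1.48 CPM in brain with a log2 fold change of 2.67 ± 0.50 in the wild type and 1.67 ± 0.56 in the knockout. The knockout value of Mkrn3 did not pass the test without knockout brain library 1 or knockout liver library 2 or 3. Peg12 was at most 0.135 CPM in brain and 0.419 CPM in liver and was not tested.

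All 3 members of the Peg13-Kcnk9 cluster on chromosome 15 were higher in brain. Peg13, a non-coding RNA inside an intron of Trappc9, was at 225, 239 and 230 CPM in wild-type brain and 11.8, 13.002 and 16.1 CPM in wild-type liver, a log2 fold change of 4.09 ± 0.15. Kcnk9, the potassium channel gene that is maternally expressed in brain, was at 135, 135 and 132 CPM in wild-type brain and had 1 count over the 3 wild-type liver libraries. The ratio of Kcnk9 between the tissues was 7630, with a 95% counting interval of 1369 to 301400. Without wild-type liver library 2 it was 4939. Without wild-type liver library 3, which held the 1 liver count, Kcnk9 was at least 842-fold higher in brain. In the knockout, where liver had 0 counts, Kcnk9 was at least 787-fold higher in brain. Trappc9, a vesicle transport gene, was at 46.2, 40.1 and 45.6 CPM in wild-type brain and 27.9, 24.7 and 20.4 CPM in wild-type liver, a log2 fold change of 0.86 ± 0.14.

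The Kcnq1ot1-Cdkn1c cluster held the member with the highest level per kb in liver, Slc22a18, which encodes a membrane transporter. Slc22a18 (chr7:143473736-143499334, plus strand) was at 71.6, 66.8 and 58.4 CPM in wild-type liver and 70.7, 63.7 and 56.1 CPM in knockout liver. In brain it was at 0.133, 0.246 and 0.0854 CPM in the wild type and 0.198, 0.132 and 0.316 CPM in the knockout. Its log2 fold change of brain over liver was -8.66 ± 0.25 in the wild type (adjusted p = 9.06e-08) and -8.17 ± 0.24 in the knockout (adjusted p = 1.56e-07). Its brain counts were few, at 11 over the wild-type and 14 over the knockout libraries. The ratio of brain to liver was 0.00239 in the wild type, with a 95% counting interval of 0.00119 to 0.00427. In the knockout it was 0.00338, with an interval of 0.001845 to 0.00568. Cdkn1c and Kcnq1ot1 of the same cluster were higher in brain, and Phlda2 was not tested. Cdkn1c, the cell cycle inhibitor p57, had a log2 fold change of 1.23 ± 0.23 in the wild type and 0.87 ± 0.34 in the knockout, where its adjusted p was 0.0489 and rose to between 0.101 and 0.127 without knockout brain library 1 or 3 or knockout liver library 2 or 3. Kcnq1ot1, the paternally expressed non-coding RNA that silences this cluster, was at 462, 456 and 444 CPM in wild-type brain and 148, 169 and 175 CPM in wild-type liver, a log2 fold change of 1.47 ± 0.11. Its annotated exon is 93.1 kb long and overlaps Kcnq1 on the other strand, and its level was 5.02 CPM per kb in brain and 1.80 in liver.

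In the pairs Nnat with Blcap and Zrsr1 with Commd1, which are nested or overlap, the tissue difference was unlike in size or direction. Nnat, a small membrane protein gene of neurons that lies inside an intron of Blcap, was at 22.9, 27.9 and 43.2 CPM in wild-type brain and at most 0.421 CPM in liver. Blcap was at 37.9, 39.4 and 38.2 CPM in wild-type brain and 31.6, 29.9 and 25.2 CPM in wild-type liver. It was called higher in brain in the wild type only, with a log2 fold change of 0.42 ± 0.11 (adjusted p = 0.0105), against 0.33 ± 0.17 in the knockout (adjusted p = 0.120), and the difference between the genotypes in this contrast, 0.07 ± 0.22, did not pass the test. Zrsr1, a splicing factor gene copied by retroposition into an intron of Commd1, was at 50.9, 43.3 and 43.6 CPM in wild-type brain and 19.4, 21.1 and 25.2 CPM in wild-type liver. Commd1, which takes part in copper handling, went the other way, at 6.15, 5.99 and 6.49 CPM in wild-type brain and 19.98, 17.6 and 20.02 CPM in wild-type liver, a log2 fold change of -1.62 ± 0.13 (adjusted p = 1.09e-05). In the knockout Commd1 was at -1.58 ± 0.15 (adjusted p = 4.08e-05).

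All 8 members outside the clusters were higher in brain in both genotypes. Rasgrf1, a Ras activator of neurons, was at 285, 317 and 285 CPM in wild-type brain and had 1 count over the wild-type liver libraries, a ratio of 16850 with a 95% counting interval of 3024 to 665600. Without wild-type liver library 2 the ratio was 10910. Without wild-type liver library 3, which held the 1 count, Rasgrf1 was at least 1857-fold higher in brain. In knockout brain it was at 220, 299 and 300 CPM, and in knockout liver at 1.26, 0.0563 and 0 CPM, so that the first knockout liver library was alone in holding more than 1 count. The knockout ratio of Rasgrf1 was 599.5, with a 95% counting interval of 406 to 926.7, and 9769 without that library. Nap1l5, a nucleosome assembly gene inside an intron of Herc3, was at 142, 126 and 166 CPM in wild-type brain and 0.225, 0.149 and 0.367 CPM in wild-type liver, which were 14 counts in all, a log2 fold change of 9.17 ± 0.26. In knockout liver Nap1l5 was at 0.0526, 0.169 and 0.0561 CPM. Its knockout log2 fold change was 10.31 ± 0.24, or 10.99 without knockout liver library 2. Zdbf2, a zinc finger gene, was at 27.7, 48.0 and 59.0 CPM in wild-type brain and at most 0.316 CPM in any liver library, where it had 6 counts over the wild-type and 8 over the knockout libraries. The ratio of Zdbf2 between the tissues was 428 in the wild type, with a 95% counting interval of 197 to 1168, and 297 in the knockout, with an interval of 151 to 689, or 775 without knockout liver library 1. Impact, a regulator of translation, had a log2 fold change of 3.01 ± 0.16 in the wild type. Plagl1, a zinc finger growth regulator, had 1.81 ± 0.22, and Grb10, an adaptor that restrains insulin signalling, had 1.90 ± 0.18. Inpp5f, a phosphatase gene, had 0.78 ± 0.17. Gnas, which encodes the stimulatory G protein subunit, was abundant in both tissues, at 468, 573 and 664 CPM in wild-type brain and 387, 385 and 392 CPM in wild-type liver, a log2 fold change of 0.56 ± 0.15 (adjusted p = 0.00866). Without wild-type brain library 3 it was 0.39 with an adjusted p of 0.0530. In the knockout the adjusted p of Gnas was 0.0373, and it ran from 0.0724 to 0.141 in the 5 fits that each left out a library other than knockout brain library 1.

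Set per kb of exon, the 5 highest members in brain were Meg3, Snrpn, Nap1l5, Peg13 and Gnas, with means of 174, 164, 73.0, 48.7 and 47.6 CPM per kb over the 6 brain libraries. Meg3 and Snrpn differed by less than their SDs of 21.3 and 15.9, as did Peg13 and Gnas, with SDs of 1.79 and 6.89, while Nap1l5, with an SD of 9.20, lay between these pairs. In liver the order was Slc22a18, Gnas, Igf2r, Blcap and Ube3a, with 38.0, 35.0, 13.1, 9.65 and 8.48 CPM per kb. Slc22a18 and Gnas differed by less than the SD of Slc22a18, 3.73, and Blcap and Ube3a by less than the SD of Blcap, 1.58. Gnas alone was among the 5 highest in both tissues.

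Ratios between opposing neighbours, per kb of exon, did not overlap between the brain and the liver libraries in 6 of the 10 pairs. The share among other pairs of genes was not counted. Since 78.6% of all genes differed between the tissues in the wild type, the 6 describe these pairs only. The ratio of Snrpn to Ube3a was 19.98 in brain (18.3 to 22.1 over the 6 libraries) and 0.564 in liver (0.470 to 0.689). Peg13 exceeded Trappc9 by a ratio of 8.70 in brain (7.54 to 10.0) and was close to it in liver at 0.961 (0.709 to 1.33). Zrsr1 over Commd1 was 10.4 in brain (8.88 to 11.5) and 1.58 in liver (1.28 to 1.91). H19 over Igf2 ran from 0.00939 to 0.0635 in brain and from 0.358 to 9.31 in liver. Nnat over Blcap was 1.33 in brain and 0.00894 in liver, and Mest over Copg2 was 1.40 in brain (0.976 to 2.01) and 0.186 in liver (0.130 to 0.269), again without overlap. The ratio of Igf2r to Airn ranged from 2.70 to 30.2 among the brain libraries and from 12.6 to 18.1 in liver, and that of Cdkn1c to Kcnq1ot1 ranged from 0.245 to 0.421 in brain and from 0.241 to 0.668 in liver, so both overlapped. Peg3 over Zim1 was 72.2 in brain and 85.8 in liver, with overlapping libraries, and Meg3 over Dlk1 ran from 50.3 to 3120 in brain.

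**Figure D3:**
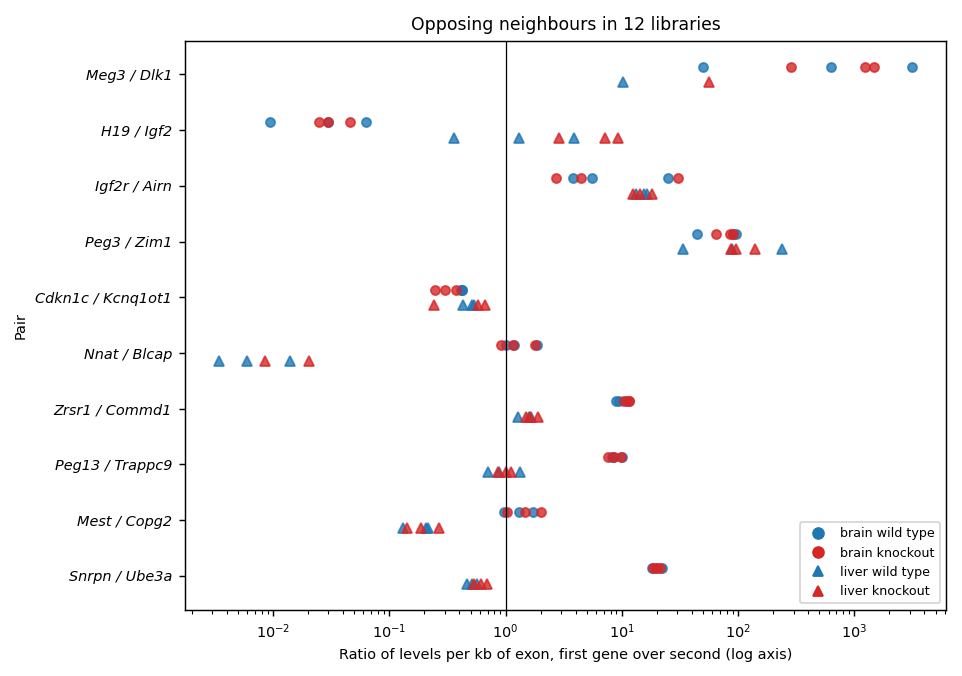
Ratio of the levels per kb of exon of 10 pairs of opposing neighbours in each library, on a log axis; circles are brain, triangles liver, blue wild type and red knockout. Ratios with a level of 0 are left off (Meg3/Dlk1 in 4 liver libraries and Nnat/Blcap in 1). Brain and liver separate for Snrpn/Ube3a, Peg13/Trappc9 and Zrsr1/Commd1 and overlap for Igf2r/Airn.

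Some of these levels are uncertain because genes share sequence. The deposited values were not whole numbers in 11 of the 12 libraries for Snrpn, which shares exons with Snurf and Gm38393, and for Commd1, which shares exons with Gm28048, and in 10 libraries for Inpp5f. For Meg3, whose exons overlap Gm27300, Mir1906-1 and Mir770 on the same strand, they were not whole in 7 libraries. Mest and Copg2, Zrsr1 and Commd1, Ube3a and Snhg14, and Gnas and Nespas overlap on opposite strands, and the use of strand in the counting was not given in the sources used here, so their reads may not be told apart. Peg13 lies inside an intron of Trappc9 on the same strand, so unspliced Trappc9 reads could be counted to Peg13 even by strand. The part of such reads was not tested.

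In brain no imprinted gene passed the test between knockout and wild type. Of the 39 members tested, 0 were called at an adjusted p under 0.05 by edgeR, as were 0% of all 18075 genes and 0 by DESeq2, and 0 members had an unadjusted p under 0.05, as did 0.675% of all genes. That count was 2 without wild-type library 1 or 2, where 1.61% and 3.32% of all genes passed, and 1 without wild-type library 3, where 0.444% did. The 3 knockout and 3 wild-type values did not overlap for 2 members (5.13%), Cdkn1c and Kcnq1ot1, against 4.23% of all genes. The log2 fold changes of the 39 members ran from -2.22 (Dlk1) to 0.49 (Airn).

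Cdkn1c had the smallest p-value of the members in brain. It was at 4.20, 4.18 and 4.10 CPM in the wild type and 3.90, 2.56 and 3.25 CPM in the knockout, so that all knockout values lay below all wild-type values. Its log2 fold change was -0.37 ± 0.20 (adjusted p = 1.00). Kcnq1ot1 of the same cluster was at 462, 456 and 444 CPM in the wild type and 473, 476 and 492 CPM in the knockout, with a log2 fold change of 0.08 ± 0.09 (adjusted p = 1.00). Nap1l5 was at 142, 126 and 166 CPM in the wild type and 120, 126 and 128 CPM in the knockout, which overlapped, with a log2 fold change of -0.22 ± 0.13 (adjusted p = 1.00). Grb10 was at 28.1, 27.4 and 38.6 CPM in the wild type and 27.02, 28.2 and 25.9 CPM in the knockout, with a log2 fold change of -0.22 ± 0.15 (adjusted p = 1.00).

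The third wild-type brain library stood apart in these genes. Dlk1 was at 1.37, 0.328 and 18.96 CPM in the wild type and 2.86, 0.881 and 0.767 CPM in the knockout, and Magel2 was at 0.752, 0.861 and 2.99 CPM in the wild type and 0.741, 1.01 and 0.767 CPM in the knockout. In both genes the third wild-type library alone was high and the other 5 overlapped. The log2 fold change of knockout over wild type was -2.22 ± 1.37 for Dlk1 and -0.87 ± 0.59 for Magel2 (adjusted p = 1.00 for both). Without that library the values were 0.82 and 0.065, in the opposite direction. Rtl1, the neighbour of Dlk1, was at 0.265, 0.041 and 1.88 CPM in the wild type and at most 0.316 CPM in the knockout. Peg10 was at 16.4, 14.8 and 42.4 CPM in the wild type and between 19.1 and 22.4 CPM in the knockout. Zim1 was at 7.22 CPM in the third wild-type library and between 2.75 and 4.06 CPM in the other 5. Of the 39 tested members, 19 (48.7%) had their highest brain value in that library, where 17.4% of all genes tested had theirs.

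The shift of the members as a list rested on the same library. Below 0 lay 29 of the 39 log2 fold changes of knockout over wild type in brain, with a median of -0.09, while the median of all genes was -0.01 and 48.2% of all genes lay above 0. Without the third wild-type library 17 members lay below 0 and their median was 0.02. That library also held the highest level of the hypothalamic gene Trh, at 5.47 CPM against at most 0.615 CPM in the other brain libraries, and of the hypothalamic gene Otp, at 0.769 CPM. It had the highest level of the myelin gene Mbp, at 2508 CPM against at most 1345 CPM, and of the astrocyte gene Gfap, at 165 CPM. The neuronal genes Rbfox3, Snap25 and Syt1 were not highest there. Rbfox3 was lowest there, at 165 CPM against 202 to 242 CPM in the other brain libraries. The sum of all 10 hypothalamus markers was 16.5, 30.7 and 26.9 CPM in wild-type libraries 1 to 3, against 25.0, 32.8 and 24.2 CPM in those of the knockout, with 2 to 6 of the 10 markers at 0 in each library. Most of that sum was Npy, a neuropeptide gene that is also expressed outside the hypothalamus. Apart from Npy, Trh and Otp, a choice made after the data were seen, the other 7 markers summed to 0.384 CPM in the third wild-type library and to between 0.123 and 0.226 CPM in the other 5, levels near the floor. The part of brain region in these differences was not tested.

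**Figure D4:**
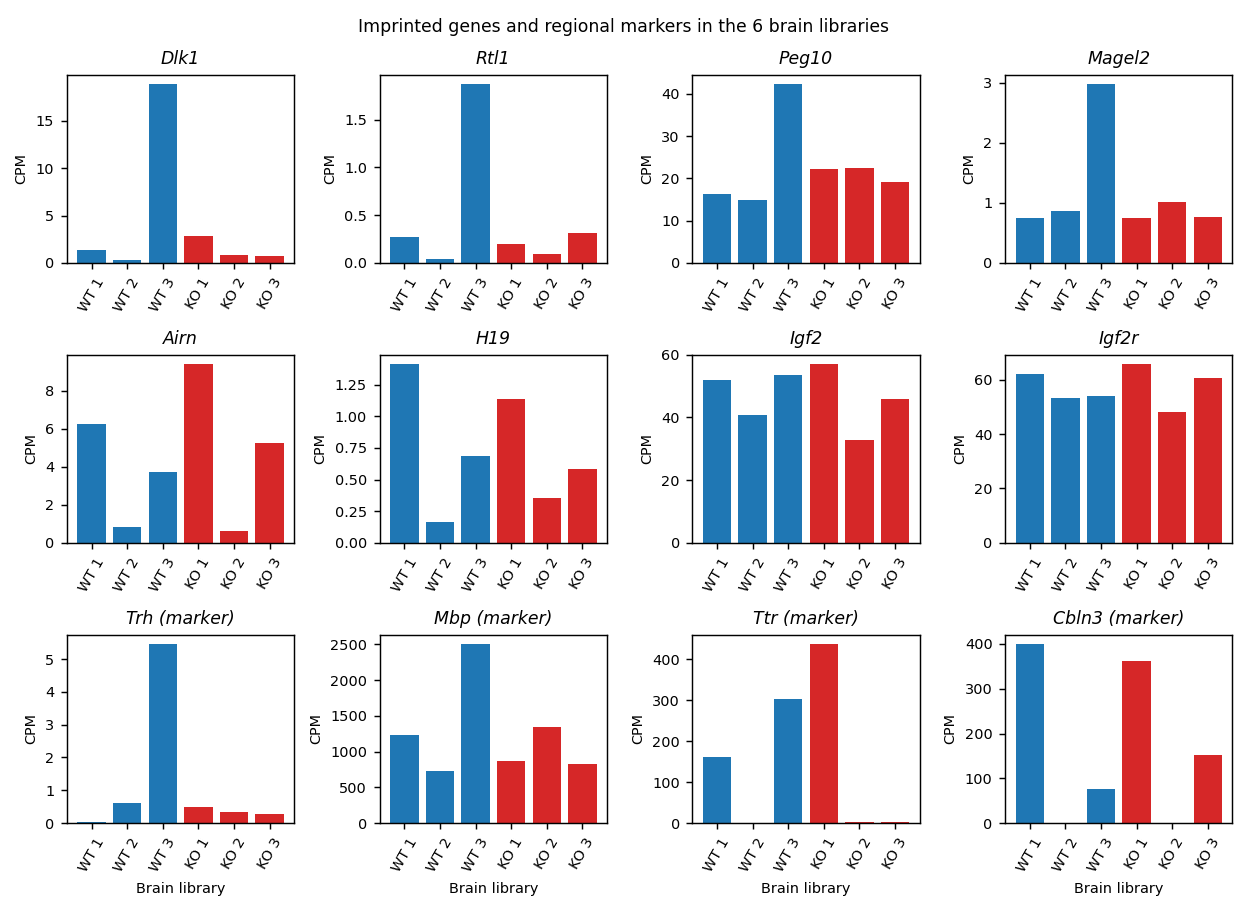
Levels in CPM (y axes, each from 0) of 8 imprinted genes and 4 marker genes in the 6 brain libraries (x axes), wild type in blue and knockout in red, 1 bar per library. Dlk1, Rtl1, Peg10 and Magel2 were highest in the third wild-type library, as was the hypothalamic marker Trh; Airn and the cerebellar marker Cbln3 were lowest in both libraries numbered 2.

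In liver the members did not pass the test either. Of the 27 members tested, 0 were called at an adjusted p under 0.05 by edgeR, as were 0% of all 15329 genes. Vaultrc5 itself, at 33 to 48 counts in wild-type and 0 in knockout liver libraries, was not called by that test either. A lack of calls here therefore does not show that a member was unchanged. The DESeq2 Wald test called 10 of all genes and edgeR with the numbered pairs as a block called 2, with 0 members among either. By edgeR 1 member had an unadjusted p under 0.05 (3.70%), where 3.5% of all genes did. Without knockout library 3 that count was 5 of 28 (17.9%), where 7.23% of all genes in that fit passed, and it was 0 without wild-type library 2 or knockout library 1 or 2. The values did not overlap for 1 tested member (3.70%), against 9.62% of all genes. Among the members with too few counts to test, they did not overlap for Mirg, described below, and for Peg12, which was at 0.113, 0.199 and 0.419 CPM in wild-type liver and 0.105, 0.0563 and 0.0561 CPM in knockout liver, where all knockout values lay under the floor of 3 counts. Above 0 lay 13 log2 fold changes and below 0 lay 14, and the medians were -0.0026 over the members and 0.005 over all genes.

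The member in both of these counts was Impact, which inhibits a kinase that senses amino acid shortage. Impact was at 16.9, 18.1 and 19.3 CPM in wild-type liver and 14.3, 13.4 and 15.7 CPM in knockout liver, and every knockout value lay below every wild-type value. Its log2 fold change was -0.32 ± 0.11 (adjusted p = 0.992). It lies on chromosome 18, as Vaultrc5 does, and in brain it was at -0.21 ± 0.18 with overlapping groups. H19 was at 0.113, 0.448 and 0.786 CPM in wild-type liver and 1.05, 0.451 and 1.57 CPM in knockout liver, a log2 fold change of 1.17 ± 0.66 (adjusted p = 0.992) with overlapping values. Peg3 was at 16.4, 16.6 and 20.6 CPM in the wild type and 22.5, 25.9 and 17.7 CPM in the knockout, a log2 fold change of 0.30 ± 0.16 (adjusted p = 0.992). Commd1 was at 19.98, 17.6 and 20.02 CPM in the wild type and 15.9, 14.9 and 18.7 CPM in the knockout, a log2 fold change of -0.21 ± 0.12 (adjusted p = 0.992). Snrpn was at 10.4, 8.77 and 9.90 CPM in the wild type and 9.99, 11.3 and 11.6 CPM in the knockout, a log2 fold change of 0.19 ± 0.13 (adjusted p = 0.992). In these last 3 genes the genotypes overlapped. Taken by numbered pairs, the knockout library was the lower in 3 of 3 pairs for Commd1 and the higher in 3 of 3 for H19. Altogether 7 of the 27 members (25.9%) had 1 direction in every pair, as did 28.8% of all genes, and with the pairs as a block the adjusted p was 0.803 for both genes and 0.748 for Impact.

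**Figure D5:**
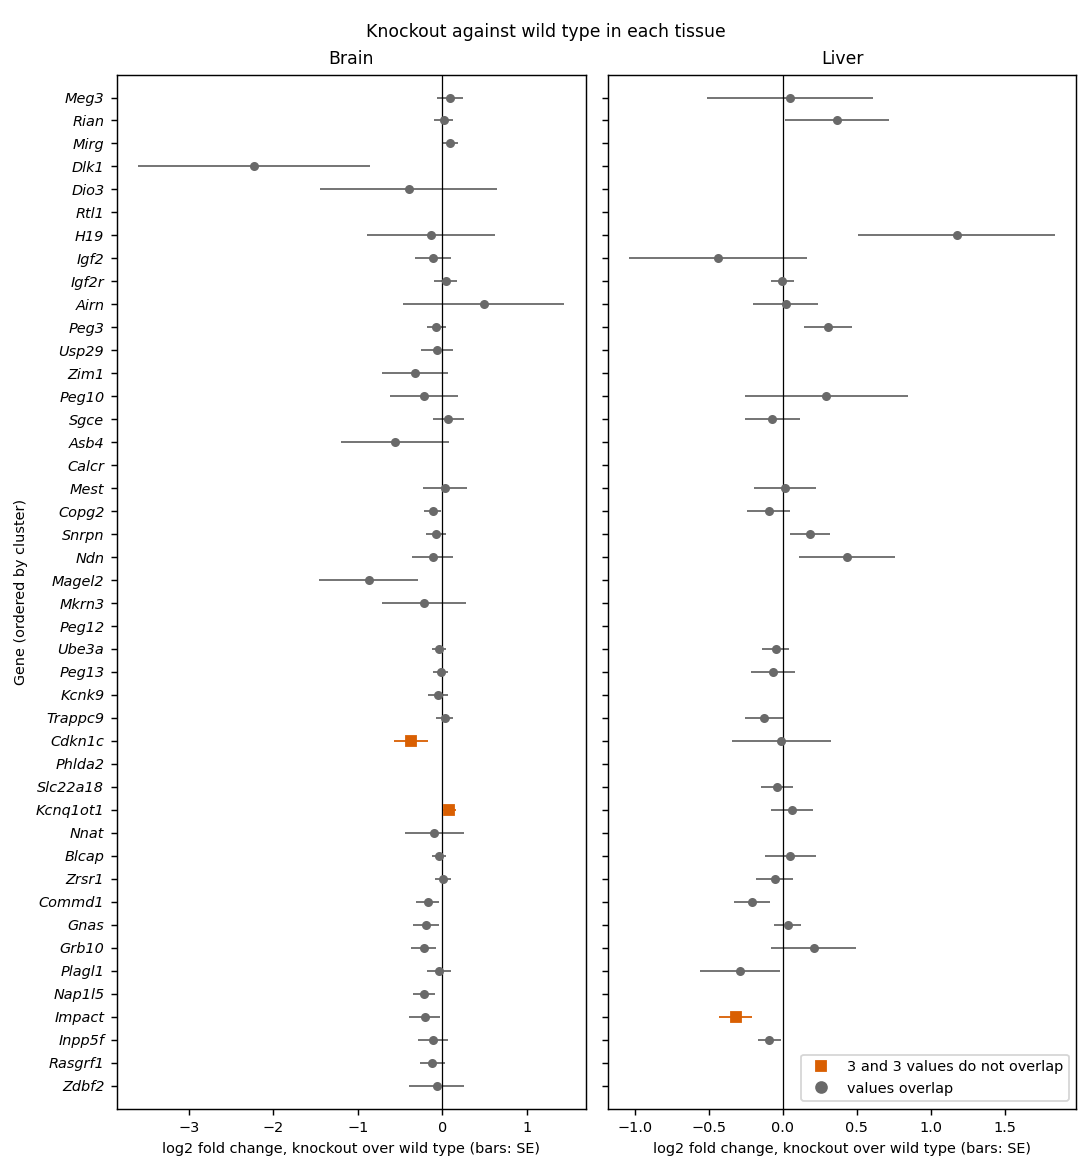
Log2 fold change of knockout over wild type for each tested member, with its SE, in brain (left) and liver (right), genes in the order of their clusters; rows without a point were not tested. Orange squares mark the members whose 3 and 3 values do not overlap: Cdkn1c and Kcnq1ot1 in brain and Impact in liver.

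The knockout effect itself was compared between tissues in 1 fit of all 12 libraries. Of the 40 members tested, 0 differed at an adjusted p under 0.05 by edgeR, as did 0% of all 20141 genes (1 gene by DESeq2, not a member), and 2 (5.00%) had an unadjusted p under 0.05, where 2.43% of all genes did. With 1 library left out that count was 1 to 4, and the 4 came without wild-type brain library 1 or knockout liver library 3, where 3.03% and 3.99% of all genes passed. The liver effect exceeded the brain effect by 1.26 ± 0.33 on the log2 scale for Mirg (adjusted p = 1.00). Mirg was at 0.225, 0.249 and 0.262 CPM in wild-type liver and 0.894, 0.620 and 0.393 CPM in knockout liver, levels near the floor, and had too few counts for the liver comparison on its own. For Rasgrf1 the difference was 4.39 ± 1.70 (adjusted p = 1.00). It rested on the 24 counts of Rasgrf1 in the first knockout liver library, where the other 5 liver libraries held 0 or 1, and without that library it was 0.64. The same library had the highest liver levels of Meg3 at 9.47 CPM and of Rian at 4.10 CPM. It also had the highest sum of 4 bile duct cell markers, at 23.5 CPM against 8.97 to 18.1 CPM in the other 5 liver libraries, with none of the markers at 0. Among them Krt19 was at 7.36 CPM there and at most 1.94 CPM in the others, and Krt7 at 2.32 CPM against at most 1.54 CPM, while Sox9, the most abundant of the 4, was at 11.73 CPM there and reached 14.5 CPM in the second knockout library. Their part in these levels was not tested.

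The genes that act on imprints were taken as a list of 30 regulators, from the methylation readers Zfp57 and Zfp445 to the methyltransferases and Polycomb proteins. In each tissue 28 of them were tested and 0 passed between knockout and wild type, with medians of 0.035 in brain and -0.00041 in liver. The smallest unadjusted p-values were those of Tet3, at a log2 fold change of 0.20 ± 0.15 in brain, and of Cbx3, at -0.18 ± 0.10 in liver. Between the tissues of the wild type 12 of 28 were higher in brain and 7 higher in liver, where 43.9% and 34.7% of all genes were. Tet1, an enzyme that oxidises methylated cytosine, had a log2 fold change of 5.01 ± 0.34 and Cbx5, a heterochromatin protein, one of 1.69 ± 0.12. Dnmt1, which copies methylation after replication, had 1.09 ± 0.10, and the histone demethylase Kdm1b had -2.02 ± 0.15.

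A further list of 40 imprinted or cluster genes, of which 39 were in the table, held 28 tested genes in brain and 26 in liver, with 0 called between genotypes. Its smallest p-value was that of Snhg14, the non-coding RNA that runs antisense to Ube3a, in liver, with a log2 fold change of 0.68 ± 0.19 (adjusted p = 0.992). Between the tissues of the wild type 12 of 28 of these genes were higher in brain and 12 were higher in liver, against 43.9% and 34.7% of all genes, with a median of 0.10 against 0.21. Snhg14 itself was higher in brain by 7.54 ± 0.16 on the log2 scale and Begain by 9.83 ± 0.36, while Pon3, at -5.98 ± 0.18, and Tfpi2, at -10.10 ± 0.37, were higher in liver.

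The partners of Igf2 and Igf2r in growth signalling were taken as 14 genes, and 0 of the 12 tested in brain and the 14 tested in liver passed between genotypes. In the wild type 10 of 14 were higher in liver and 3 in brain, where 34.7% and 43.9% of all genes were, with a median log2 fold change of -2.98 against 0.21 over all genes. The hormone gene Igf1 was at -6.49 ± 0.13, the growth hormone receptor gene Ghr at -6.67 ± 0.17, and the binding protein gene Igfbp4 at -5.53 ± 0.25. The receptor gene Igf1r was higher in brain, at 3.33 ± 0.11, as was Igf2 of the imprinted genes.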

How the data were processed

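The deposited table holds 55450 genes in 12 libraries, with a column for each library. Its units are expected counts, which the authors made from the reads and did not normalize. Per the labels' protocols, TRIzol RNA was treated with DNase, depleted of ribosomal RNA and made into stranded ligation libraries, read single-end. The submitters' processing notes name cutadapt, STAR and mm10; how reads were counted, and whether by strand, was not given in the sources used here. The members and lists were chosen with earlier results of these data known. Groups follow the titles and genotype labels, and 0 columns were left unmatched.

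Counts were rounded to whole numbers. Each comparison of 6 libraries, and the interaction over 12, was fitted in R 4.3.3 by quasi-likelihood with edgeR 4.0.16 (robust, TMM, filterByExpr with minimum count 10 and total 15) and Benjamini-Hochberg adjustment over all genes tested at 0.05. SE is the size of a log2 fold change over the root of its F statistic. Printed CPM use TMM over all 12 libraries, and levels per kb divide by the exon union of GENCODE M21 (GRCm38), the source of the coordinates. The pipeline was tested on simulated data. Replicates of a group differed by 27.2 to 228 times the degrees of freedom of a chi-square, so none was counted as a duplicate.

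All members were named. Fuller values, though not those of every library in both genotypes, were given for members picked by rule. In knockout comparisons these were members called, or else the 5 smallest p-values, and those whose values did not overlap. Between tissues they were the 6 largest differences per direction and members called in 1 contrast or neither. The 5 highest levels per kb and the opposing neighbours were added. Alternatives were other scaling (DESeq2 1.42.0 size factors, library totals), the DESeq2 test, other filters, non-robust estimation, a threshold of 0.1, 1 fit of 12 libraries, the replicate block, each library left out and, added after seeing the data, both brain libraries numbered 2 left out. Wild-type and knockout libraries share replicate numbers in their titles. In liver same-numbered libraries deviated together (correlations of 0.322, 0.336 and 0.384 over 13938 genes), so the numbers pair the liver libraries. Protein sequences were not analysed here.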

Additional observations from a re-analysis of the deposited data

How the results depend on the processing

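Every count of members called stayed within 1.5 times its value under each alternative run. The number of members below 0 in brain between knockout and wild type was 17 to 30 with 1 library left out, and the 17 came without wild-type replicate 3. With 1 brain library left out, the log2 fold change of Dlk1 ran from -3.06 to 0.82 and that of Magel2 from -1.20 to 0.065. For wild-type brain against liver the ranges with 1 library left out were -0.12 to 1.37 for H19 and -0.50 to 0.59 for Airn, whose signs turned without brain replicate 1; for the knockout Airn ran from -0.11 to 1.16. On library totals, a scaling that moves all genes towards brain, Ube3a reached 0.79 in the wild type and 0.84 in the knockout, and H19 0.28 in the knockout. With 1 library left out, 30 to 33 members were called between the knockout tissues, with 30 without liver replicate 2 or 3, and Gnas, Cdkn1c and Mkrn3 were those that lost their call. Over all tested members and refitted alternatives, 2642 values kept direction and call, 10 became called, 17 lost their call, 162 changed sign and 17 were not tested, and of the sign changes 4 were between the wild-type tissues and 3 between those of the knockout. Copg2 was among those that became called, at 0.32 in either genotype with all 12 libraries in 1 fit.

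With the replicate block 0 members were called between genotypes in brain or liver, and Airn in the wild-type tissue contrast turned to -0.087; in the knockout tissue contrast 32 members were called, 29 of them higher in brain, and Gnas lost its call (0.33, adjusted p = 0.0892 by edgeR). The block changed no other call of a member. Same-numbered brain libraries had correlations of 0.669, 0.635 and -0.0202, and same-numbered brain and liver libraries at most 0.0424. Brain numbers 1 and 2 deviated together and number 3 did not, so not every brain pair exceeded the 0.1 taken as the mark of pairing. The 6 members at or under 3 counts in every liver library allow only a bound or a counting interval, and Mirg, H19, Igf2, Zim1, Mkrn3, Nnat, Nap1l5, Zdbf2 and Rasgrf1 had at most 30 counts over the 3 liver libraries of at least 1 genotype. On the brain side Slc22a18 was as low, at 11 counts over the wild-type and 14 over the knockout libraries.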
